A study of Mus musculus with 88 samples.

Results

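The HSP90 chaperone machinery was followed through nuclear RNA of sorted mouse brain nuclei and through maps of γH2AX, the phosphorylated histone that marks chromatin around DNA double-strand breaks. The 9 genes described were chosen by symbol, by a rule that names genes and sets no measured value, as 9 of the 53749 gene IDs in the 3 count tables: the 4 HSP90 chaperones *Hsp90aa1*, *Hsp90ab1*, *Hsp90b1* and *Trap1*, and the 5 co-chaperones *Stip1*, *Chordc1*, *Ahsa1*, *Ptges3* and *Cdc37*. All 9 were matched, and all 9 passed the filter on low values in every fit. HSP90 proteins are ATP-driven chaperones that bring partly folded client proteins, among them steroid hormone receptors and many signaling kinases, to an active state, and co-chaperones load clients, pace the ATPase or hold the closed chaperone. HSP90 holds the unliganded glucocorticoid receptor in a form that can bind hormone. The stress-inducible forms are classical targets of heat shock factor, and in neurons HSP90 is known for its part in protein homeostasis and receptor signaling.

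All animals were adult wild-type male C57BL/6J mice of 4 months, with no transgene or deletion in any group. Naive mice stayed in the home cage, and the other mice went through contextual fear conditioning (CFC), which pairs a context with foot shocks, and were killed 10 minutes (CFC10) or 30 minutes (CFC30) after they were put in the context. Nuclei from the medial prefrontal cortex (mPFC) or the hippocampus (HIP) were fixed and sorted into NeuN+ (neuronal) and NeuN- (glial, with vascular and other cells) fractions, with 4 replicates per group in the HIP and 3 in the mPFC. In a separate experiment, hippocampal nuclei were taken 30 minutes after intraperitoneal corticosterone (2 mg/kg, as a complex named HBC in the labels) or the same volume of saline and sorted as NeuN+, GFAP+ (astrocytic), PU.1+ (microglial) or 3X- (negative for all 3 stains, oligodendrocyte-enriched), with 4 replicates per group. γH2AX was mapped in unsorted tissue of naive and CFC30 mice, with the tissue of 3 animals pooled in each replicate. RNA libraries were not stated to come from separate animals in the labels, so p-values measure the spread between these libraries.

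The RNA tables held raw counts per gene body, exons and introns together, of 10561897 to 18271372 per library in the HIP, 10577263 to 16392677 in the mPFC and 5935395 to 12758257 in the corticosterone experiment. A member had between 47 counts (*Ahsa1*) and 2295 counts (*Hsp90b1*) in a library. Replicates 3 and 4 of HIP NeuN- naive nuclei were identical in every gene and were counted as 1 sample, so that group had n = 3. Sorting markers followed the labels: summed CPM (counts scaled to a common library total) of 7 excitatory neuron markers were 1220 to 1642 in NeuN+ libraries and 69.0 to 199 in NeuN- libraries, 8 microglia markers summed to 6773 to 7807 in PU.1+ libraries and 7 astrocyte markers to 3173 to 4114 in GFAP+ libraries. GFAP+ and PU.1+ libraries also held 367 to 779.5 CPM of the excitatory markers. In such bulk fractions, fewer cells of a type and less RNA per cell cannot be told apart.

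In unstimulated nuclei, the cytosolic *Hsp90ab1* (constitutive HSP90β) had the highest mean level per gene length of the 9 genes in all 8 groups, followed by the endoplasmic reticulum form *Hsp90b1* (GRP94) and the inducible cytosolic *Hsp90aa1* (HSP90α). Levels were computed as FPKM over the gene body (counts scaled by gene length and library total). *Hsp90ab1* stood at 10.8 ± 2.23 FPKM in HIP NeuN+ and 16.9 ± 2.16 in HIP NeuN- nuclei, and *Hsp90b1* at 4.43 ± 0.441 and 8.48 ± 0.410. *Hsp90aa1* stood at 2.14 ± 0.339 and 3.65 ± 0.615. The mitochondrial form *Trap1* and the co-chaperones were lower. In HIP NeuN+ nuclei *Chordc1*, which encodes a CHORD-domain HSP90 partner, had 1.82 ± 0.0555 FPKM, *Trap1* 0.984 ± 0.0227, and *Stip1* (HOP, which links HSP70 to HSP90) 0.649 ± 0.0824. *Cdc37* (the kinase-loading co-chaperone), *Ptges3* (p23, which holds the closed HSP90) and *Ahsa1* (AHA1, an activator of the ATPase) had 0.983 ± 0.114, 0.948 ± 0.105 and 0.845 ± 0.135, and the means of *Trap1*, *Cdc37* and *Ptges3* differed by less than the SD of the latter pair.

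*Hsp90b1* was highest in the microglial fraction, a difference described here by its values since populations were not tested in pairs. Its 4 saline PU.1+ libraries had 246, 291, 257 and 257 CPM, against 105, 119, 120 and 118 in GFAP+, 78.8, 122, 107 and 122 in 3X- and 53.7, 68.3, 59.7 and 68.5 in NeuN+ libraries. No PU.1+ library overlapped another population, and per gene length the *Hsp90b1* of PU.1+ nuclei (17.2 ± 1.29 FPKM) lay within the spread of their *Hsp90ab1* (18.9 ± 3.32). With library totals as the scale *Cdc37* was also highest in PU.1+ libraries, at 34.1, 32.01, 36.1 and 34.2 CPM, against 16.98 to 28.11 in the other saline libraries. This smaller gap was not tested on another scale, and calls between saline populations moved with the scaling (next paragraph).

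Fitted in 1 model and scaled by TMM, saline NeuN+ nuclei had 3 members higher and 4 lower than the mean of the 3 glial populations, where 31.3% of all genes tested were called higher and 34.1% lower (edgeR quasi-likelihood test, Benjamini-Hochberg adjusted p under 0.05). The 4 lower in neurons were *Hsp90b1* (log2 fold change -0.87 ± 0.08 SE, adjusted p = 6.02e-14), *Hsp90aa1* (log2 fold change -0.70 ± 0.14 SE, adjusted p = 1.49e-05), *Hsp90ab1* (log2 fold change -0.66 ± 0.11 SE, adjusted p = 6.42e-07) and *Ptges3* (log2 fold change -0.45 ± 0.08 SE, adjusted p = 1.64e-06). In naive HIP, 1 member was higher and 2 lower in NeuN- than in NeuN+ nuclei (37% and 33.8% of all genes), and in naive mPFC 2 were higher and 3 lower (35.4% and 34.1%). *Hsp90b1* was higher in NeuN- nuclei of both regions (log2 fold change 0.47 ± 0.07 SE, adjusted p = 4.02e-07 in the HIP and log2 fold change 0.26 ± 0.07 SE, adjusted p = 0.00320 in the mPFC), and *Ptges3* in the mPFC (log2 fold change 0.33 ± 0.11 SE, adjusted p = 0.0111). Without NeuN- naive replicate 1 or NeuN+ naive replicate 4 the HIP fit called 2 higher, and without NeuN+ naive replicate 2 the mPFC fit called 1. With condition and replicate number together as a block across fractions, a fit added after the data were seen, 3 were higher in NeuN- nuclei in the HIP and 3 in the mPFC, *Hsp90ab1* joining in both regions (adjusted p = 0.00831 and 0.0319) and *Hsp90aa1* in the HIP (adjusted p = 0.024, edgeR). Several of the other calls turned with the scaling. With TMM the median log2 fold change of all genes was 0.055 for naive HIP, 0.002 for naive mPFC (both NeuN- against NeuN+) and -0.09 in the saline contrast. With library totals alone as the scale these medians were 0.51, 0.52 and -0.46. On that scale *Trap1* went from -0.35 ± 0.06 (SE, log2 scale, adjusted p = 8.93e-06) to 0.11 in the HIP and from -0.36 ± 0.08 (SE, log2 scale, adjusted p = 0.000166) to 0.16 in the mPFC, *Chordc1* and *Stip1* from -0.30 ± 0.08 (SE, log2 scale, adjusted p = 0.00228) and -0.42 ± 0.12 (SE, log2 scale, adjusted p = 0.00392) to 0.22 and 0.10 in the mPFC, and the 3 genes higher in saline NeuN+ nuclei (*Trap1*, *Stip1* and *Chordc1*) turned to -0.04, -0.13 and -0.18. DESeq2 and RLE scaling called only *Trap1* of these 3. *Chordc1* in the HIP (log2 fold change -0.62 ± 0.07 SE, adjusted p = 4.42e-09) was still lower, at -0.15. *Hsp90b1* kept its direction and its call on each of these scales, as did *Hsp90aa1*, *Hsp90ab1* and *Ptges3* in the saline contrast and *Ptges3* in the mPFC.

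**Figure D1:**
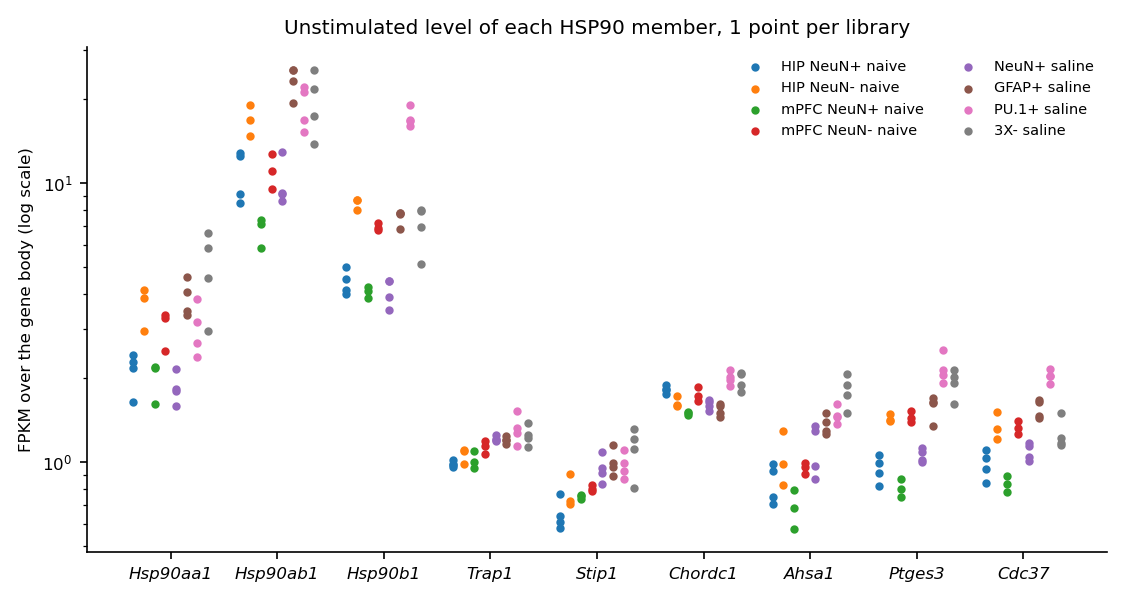
FPKM over the gene body (log axis) of the 9 HSP90 genes in every naive or saline library, 1 point per library, coloured by group. By group mean *Hsp90ab1* is highest in each group, although in PU.1+ libraries its points overlap those of *Hsp90b1*, and the 4 PU.1+ points of *Hsp90b1* stand apart between 16.08 and 19.05 FPKM.

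Genes of the HSP90 machinery were called higher at CFC30 in both regions and both fractions. In HIP NeuN- nuclei edgeR called the 3 co-chaperones *Chordc1*, *Ahsa1* and *Ptges3* at CFC30 and no HSP90 chaperone. DESeq2 called these 3 and also *Hsp90aa1* (adjusted p = 0.0372), *Hsp90ab1* (0.0112), *Hsp90b1* (0.0194) and *Stip1* (0.0172) there. The calls given below are those of edgeR unless DESeq2 is named. No member was called lower in any of the 12 contrasts among naive, CFC10 and CFC30 nuclei. In NeuN+ nuclei the members called at 10 minutes were *Hsp90aa1* and *Hsp90b1*, with *Hsp90ab1* in the mPFC only. At 30 minutes *Hsp90b1* and co-chaperones were called. A call at 1 time and none at the other is no test of an order. In HIP NeuN+ nuclei at CFC10 the uncalled change of *Stip1* (log2 fold change 0.29) exceeded the called one of *Hsp90b1* (0.25). In HIP NeuN+ nuclei 2 of 9 members were higher at CFC10 and 0 lower (2.72% and 2.14% of the 12429 genes tested), and 3 were higher and 0 lower at CFC30 (4.67% and 3.89%). In HIP NeuN- nuclei 0 were higher or lower at CFC10 (0.122% and 0.223% of 14802 genes), although 6 had an unadjusted p under 0.05 upward and DESeq2 called 1, *Hsp90aa1*, and 3 were higher and 0 lower at CFC30 (1.2% and 1.18%). In mPFC NeuN+ nuclei 3 were higher and 0 lower at CFC10 (8.19% and 6.26% of 12987 genes) and 5 higher and 0 lower at CFC30 (13.1% and 11.6%). In mPFC NeuN- nuclei 2 were higher and 0 lower at CFC10 (0.74% and 0.969% of 14866 genes), and 7 higher and 0 lower at CFC30 (2.68% and 3.18%), all but *Trap1* and *Cdc37*. The members' median log2 fold change was 0.20 at CFC10 and 0.30 at CFC30 in HIP NeuN+, 0.31 and 0.48 in HIP NeuN-, 0.22 and 0.30 in mPFC NeuN+ and 0.30 and 0.55 in mPFC NeuN- nuclei. The median of all genes tested was within 0.01 of 0 in each of these contrasts. In these 8 contrasts with naive nuclei 1 member had an unadjusted p under 0.05 downward, *Cdc37* in HIP NeuN+ nuclei at CFC30 (log2 fold change -0.19 ± 0.08 SE, adjusted p = 0.153), and DESeq2 also called no member lower after CFC. CFC10 and CFC30 were compared with the same naive libraries.

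**Figure D2:**
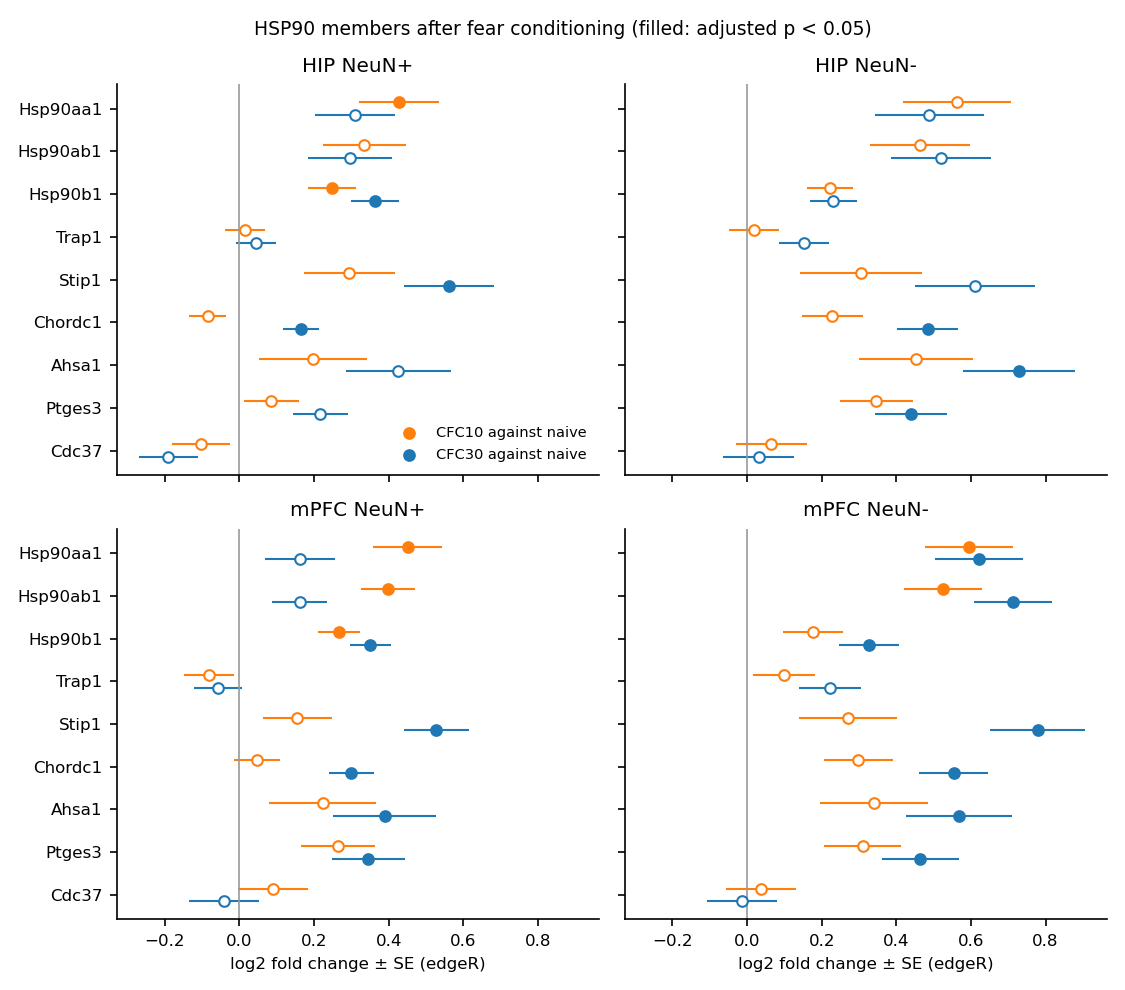
Log2 fold change (x axis, ± SE) of each HSP90 gene at CFC10 and CFC30 against naive, in the 4 fractions. Filled points passed an adjusted p of 0.05 in edgeR. In NeuN+ nuclei the filled CFC10 points are *Hsp90aa1* and *Hsp90b1* in the HIP, and these with *Hsp90ab1* in the mPFC. *Hsp90b1*, *Stip1* and *Chordc1* are filled at CFC30 in NeuN+ nuclei of both regions. In HIP NeuN+ nuclei most fits without 1 library did not keep the CFC10 call of *Hsp90b1* or the CFC30 call of *Chordc1*.

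The inducible *Hsp90aa1* rose early in neurons. HIP NeuN+ libraries had 26.4, 27.8, 19.98 and 29.3 CPM in naive mice, 34.2, 44.4, 31.8 and 33.8 at CFC10 and 31.6, 36.7, 33.03 and 28.7 at CFC30. Every CFC10 library lay above every naive library, while at CFC30 the lowest lay just below the highest naive one. The log2 fold change was 0.43 ± 0.11 (SE, log2 scale, adjusted p = 0.0251) at CFC10 and 0.31 ± 0.11 (SE, log2 scale, adjusted p = 0.0787) at CFC30, and only the first passed the test. That call was lost without naive replicate 1 or 3 or CFC10 replicate 2. In mPFC NeuN+ nuclei the libraries had 19.6, 26.6 and 26.3 CPM, then 29.2, 35.6 and 34.3 and then 27.04, 25.99 and 27.2, with a log2 fold change of 0.45 ± 0.09 (SE, log2 scale, adjusted p = 0.00148) at CFC10 and 0.16 ± 0.09 (SE, log2 scale, adjusted p = 0.233) at CFC30. The CFC30 libraries thus lay below the CFC10 libraries and overlapped the naive ones, but the step from CFC10 to CFC30 did not pass (log2 fold change -0.29 ± 0.09 SE, adjusted p = 0.113). In NeuN- nuclei *Hsp90aa1* was above naive at both times. mPFC NeuN- libraries had 30.4, 39.99 and 40.9 CPM, then 58.8, 55.3 and 53.2 and then 62.2, 59.4 and 46.3 (log2 fold change 0.59 ± 0.12 SE, adjusted p = 0.0230 and log2 fold change 0.62 ± 0.12 SE, adjusted p = 0.00559), and no CFC library reached down to the naive ones. The CFC10 call there was kept in 1 of 6 fits without 1 library, that without naive replicate 3, and the CFC30 call in all 6. HIP NeuN- libraries had 35.9, 50.1 and 46.96 CPM, then 87.98, 63.9, 60.7 and 58.1 and then 52.4, 75.5, 63.1 and 59.1, again without overlap, but with 0.56 ± 0.15 (SE, log2 scale, adjusted p = 0.101) and 0.49 ± 0.15 (SE, log2 scale, adjusted p = 0.0897) neither change passed in edgeR. DESeq2 called both (adjusted p = 0.0256 at CFC10 and 0.0372 at CFC30).

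The constitutive *Hsp90ab1* was likewise highest at CFC10 in mPFC neurons. mPFC NeuN+ libraries had 32.3, 39.2 and 40.6 CPM in naive mice, 47.4, 51.04 and 49.6 at CFC10 and 38.5, 42.1 and 43.2 at CFC30, with a log2 fold change of 0.40 ± 0.07 (SE, log2 scale, adjusted p = 0.000473) at CFC10 and 0.16 ± 0.07 (SE, log2 scale, adjusted p = 0.118) at CFC30. All CFC10 libraries lay above all naive and all CFC30 libraries. The step from CFC10 to CFC30 (log2 fold change -0.24) passed neither in edgeR nor in DESeq2 (DESeq2 adjusted p = 0.229). In mPFC NeuN- nuclei the values were 52.6, 60.9 and 69.8 CPM, then 85.4, 78.4 and 98.7 and then 96.7, 107 and 90.6, and the log2 fold change was 0.52 ± 0.10 (SE, log2 scale, adjusted p = 0.0231) at CFC10 and 0.71 ± 0.10 (SE, log2 scale, adjusted p = 0.000967) at CFC30. There every CFC library lay above every naive library. The CFC10 call was lost without naive replicate 1 or 2 or CFC10 replicate 3, and the CFC30 call in no such fit. In the HIP the changes of *Hsp90ab1* did not pass in edgeR: NeuN+ libraries went from 50.5, 68.7, 46.8 and 70.5 CPM to 79.3, 92.9, 68.1 and 67.9 at CFC10 (log2 fold change 0.34 ± 0.11 SE, adjusted p = 0.0887), with overlapping groups. NeuN- libraries went from 81.05, 105 and 92.7 CPM to 158, 142, 118 and 110 at CFC10 and 120, 173, 123 and 119 at CFC30 (log2 fold change 0.52 ± 0.13 SE, adjusted p = 0.0514), without overlap. DESeq2 called the CFC30 change in HIP NeuN- nuclei (adjusted p = 0.0112). The CFC30 change of *Hsp90ab1* was larger in mPFC NeuN- than in mPFC NeuN+ nuclei by 0.54 ± 0.14 (SE, log2 scale, adjusted p = 0.0223), the 1 member called higher (and with 0 lower) in that test of the difference, where 1.61% and 2.57% of all genes were called. It was called by DESeq2 as well, but 5 of 12 fits that left out 1 library ended the call (mPFC NeuN- naive replicate 1 or 2, mPFC NeuN+ naive replicate 2 or 3, or mPFC NeuN+ CFC30 replicate 1), and 2 members were called without mPFC NeuN- CFC30 replicate 3. With condition and number as a block across fractions 2 were called as well, *Hsp90ab1* (adjusted p = 0.00328) and *Hsp90aa1* (adjusted p = 0.049, edgeR). In the HIP the same test called 0 members higher or lower (0.137% and 0.156% of all genes), with 1 at an unadjusted p under 0.05 and none by DESeq2. There the difference for *Hsp90ab1* was 0.21 ± 0.20 (SE, log2 scale, adjusted p = 0.832).

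**Figure D3:**
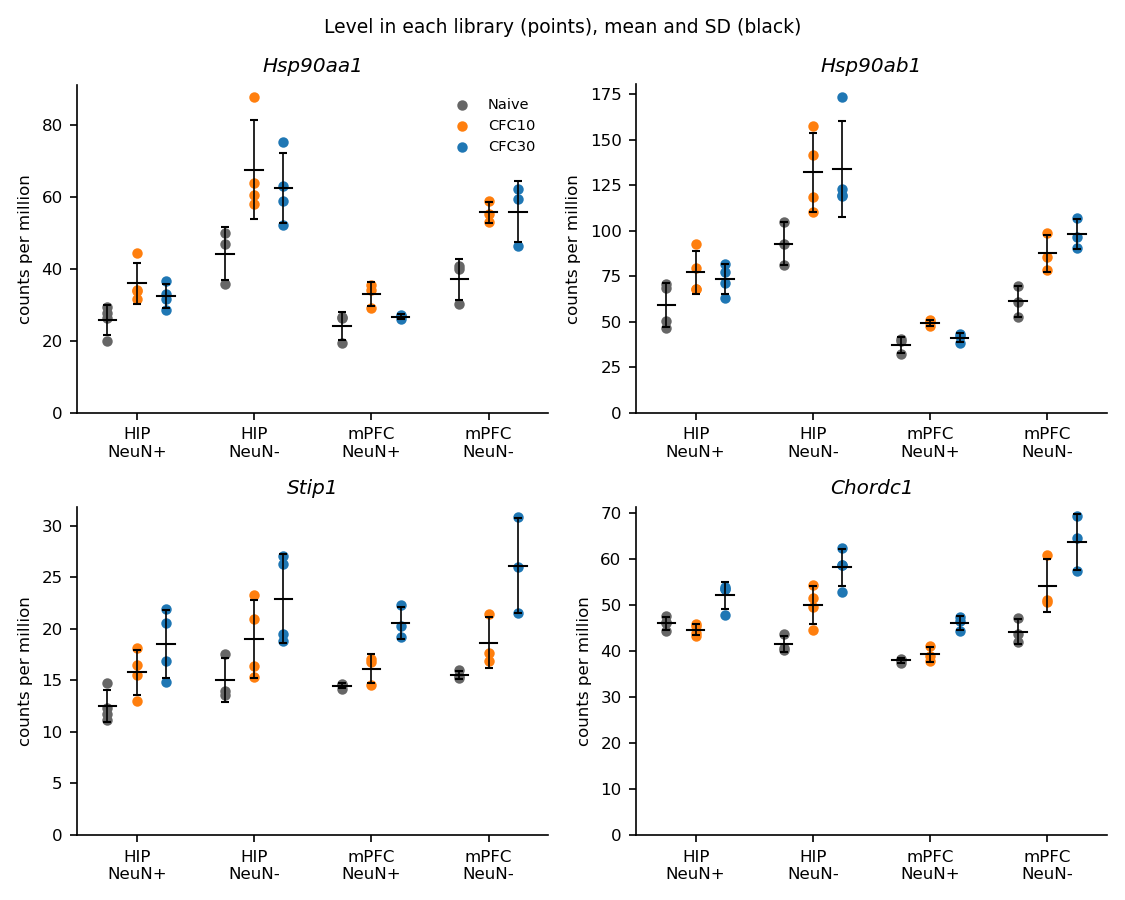
CPM (y axis, from 0) of *Hsp90aa1*, *Hsp90ab1*, *Stip1* and *Chordc1* in each library of the 4 fractions, coloured by condition, with the mean and SD of each group in black. In mPFC NeuN+ nuclei the group means of *Hsp90aa1* and *Hsp90ab1* are highest at CFC10, although their step from CFC10 to CFC30 did not pass. The group means of *Stip1* and *Chordc1* are highest at CFC30 in every fraction.

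*Hsp90b1*, the endoplasmic reticulum form, was called higher at both times in neurons, though at CFC10 in the HIP by a call that few fits without 1 library kept. HIP NeuN+ libraries had 63.3, 76.4, 61.6 and 69.7 CPM in naive mice, 82.2, 83.2, 82.1 and 83.1 at CFC10 and 96.4, 91.02, 89.1 and 75.96 at CFC30, with log2 fold changes of 0.25 ± 0.06 (SE, log2 scale, adjusted p = 0.0287) and 0.36 ± 0.06 (SE, log2 scale, adjusted p = 0.00133). In mPFC NeuN+ nuclei they had 63.04, 64.97 and 59.3, then 77.2, 76.7 and 71.5 and then 81.7, 77.2 and 76.6 CPM, with log2 fold changes of 0.27 ± 0.06 (SE, log2 scale, adjusted p = 0.00191) and 0.35 ± 0.06 (SE, log2 scale, adjusted p = 4.85e-05). Only 1 of these 14 CFC libraries, at 75.96 CPM in the HIP, fell within the naive range of its region. Leaving out 1 library ended the HIP CFC10 call in 6 of 8 fits (all but those without naive replicate 2 or CFC10 replicate 2), and the other 3 of these calls in none. In NeuN- nuclei, whose naive level was higher, the rise passed in the mPFC at CFC30 (log2 fold change 0.33 ± 0.08 SE, adjusted p = 0.0275), a call kept in 1 of 6 fits without 1 library, that without CFC30 replicate 3, and missed in the HIP (log2 fold change 0.23 ± 0.06 SE, adjusted p = 0.0593). DESeq2 called the HIP NeuN- change at CFC30 (adjusted p = 0.0194). A transcribed pseudogene on the opposite strand, *1810014B01Rik*, overlaps 30.1% of the *Hsp90b1* gene. It had 786 counts in the HIP table against 34058 for *Hsp90b1*, and since the strand setting of the counting is not given in the sources used here, reads of the overlap cannot be assigned with certainty. *Trap1*, the mitochondrial form, did not pass at either time in any fraction, with log2 fold changes between -0.08 and 0.22. Its largest was 0.22 ± 0.08 (SE, log2 scale, adjusted p = 0.141), in mPFC NeuN- nuclei at CFC30.

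Among the co-chaperones, *Stip1* and *Chordc1* were called at 30 minutes and not at 10 minutes in neurons of both regions, *Chordc1* in the HIP with a call that rests on few libraries. *Stip1* had 14.6, 14.7 and 14.2 CPM in naive mPFC NeuN+ libraries, 17.1, 16.8 and 14.5 at CFC10 and 22.3, 19.2 and 20.3 at CFC30. The CFC10 libraries overlapped the naive ones, the CFC30 libraries lay above both, and the changes were 0.16 ± 0.09 (SE, log2 scale, adjusted p = 0.298), 0.53 ± 0.09 (SE, log2 scale, adjusted p = 7.7e-05) and, from CFC10 to CFC30, 0.37 ± 0.08 (SE, log2 scale, adjusted p = 0.0229). In HIP NeuN+ libraries it went from 12.3, 11.2, 11.7 and 14.8 CPM to 18.2, 16.5, 15.6 and 12.97 and 20.5, 21.96, 16.9 and 14.8, and the CFC30 change was 0.56 ± 0.12 (SE, log2 scale, adjusted p = 0.00610). The step of *Stip1* from CFC10 to CFC30 did not pass in HIP NeuN+ nuclei (log2 fold change 0.27). The CFC30 calls of *Stip1* against naive were kept in every fit without 1 library. The largest change of any member that passed was that of *Stip1* in mPFC NeuN- nuclei at CFC30, from 15.98, 15.2 and 15.4 CPM to 26, 30.9 and 21.6 (log2 fold change 0.78 ± 0.13 SE, adjusted p = 0.00204). In HIP NeuN- nuclei the change did not pass in edgeR (log2 fold change 0.61 ± 0.16 SE, adjusted p = 0.0555), while DESeq2 called it (adjusted p = 0.0172).

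*Chordc1* did not pass at 10 minutes in neurons and was called higher at 30 minutes in all 4 fractions, in HIP NeuN+ nuclei only narrowly. HIP NeuN+ libraries had 44.3, 47.7, 46.01 and 46.3 CPM in naive mice, 43.2, 45.5, 45.8 and 44 at CFC10 and 53.4, 53.9, 53.6 and 47.8 at CFC30, so that every CFC30 library lay above every other library. The log2 fold change was -0.08 ± 0.05 (SE, log2 scale, adjusted p = 0.356) at CFC10, 0.17 ± 0.05 (SE, log2 scale, adjusted p = 0.0390) at CFC30 and 0.25 ± 0.05 (SE, log2 scale, adjusted p = 0.0241) between the times. mPFC NeuN+ libraries had 37.5, 38.3 and 38.1 CPM, then 41.1, 38.96 and 37.8 and then 44.4, 46.6 and 47.4, with 0.30 ± 0.06 (SE, log2 scale, adjusted p = 0.000559) at CFC30 and 0.25 ± 0.06 (SE, log2 scale, adjusted p = 0.0268) between the times. In NeuN- nuclei the CFC30 libraries had 62.5, 58.7, 58.7 and 52.9 CPM in the HIP against 40.7, 40.3 and 43.7 in naive mice (log2 fold change 0.48 ± 0.08 SE, adjusted p = 0.00670). In the mPFC they had 69.3, 64.6 and 57.3 against 43.7, 47.1 and 41.9 (log2 fold change 0.55 ± 0.09 SE, adjusted p = 0.00227). *Chordc1* was the 1 member called at CFC30 in all 4 fractions by edgeR. Its HIP NeuN+ call was kept in 1 of 8 fits without 1 library, that without CFC30 replicate 4 (the adjusted p ran from 0.0138 to 0.128), and was not made by DESeq2 (adjusted p = 0.0528) or without the filter on low values (0.0655). In the other 3 fractions its call was kept in every fit without 1 library.

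Between the 2 times, 1 member was called higher and 0 lower at CFC30 than at CFC10 in HIP NeuN+ nuclei (0.137% and 0.161% of all genes), namely *Chordc1*, and 2 higher and 0 lower in mPFC NeuN+ nuclei (0.755% and 0.531%), *Stip1* and *Chordc1*. In NeuN- nuclei 0 were called higher or lower in the HIP (0.101% and 0.0676%) or the mPFC (0.552% and 0.148%), with 3 and 2 upward at an unadjusted p under 0.05 and none by DESeq2. In mPFC NeuN+ nuclei *Hsp90aa1* and *Hsp90ab1* had an unadjusted p under 0.05 downward. These calls rest on few libraries. The HIP call was lost in 5 of 8 fits that left out 1 library (CFC10 replicate 1, 3 or 4, or CFC30 replicate 2 or 3), both mPFC calls without CFC10 replicate 2 or 3 or CFC30 replicate 1 and 1 of them without CFC30 replicate 2 or 3, and DESeq2 called neither mPFC change (adjusted p = 0.0813 for *Stip1* and 0.0779 for *Chordc1*). Without CFC10 replicate 1 the mPFC NeuN+ fit called 2 members lower, and without CFC10 replicate 1 or CFC30 replicate 3 the mPFC NeuN- fit called 1 higher.

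*Ahsa1* and *Ptges3* were called higher at 30 minutes in 3 of the 4 fractions, calls that often rest on single libraries, and *Cdc37* in none. *Ahsa1* had 9.75, 7.38 and 6.25 CPM in naive HIP NeuN- libraries and 13.4, 14.5, 12.7 and 10.8 at CFC30 (log2 fold change 0.73 ± 0.15 SE, adjusted p = 0.0208). It was also higher at CFC30 in mPFC NeuN- (log2 fold change 0.57 ± 0.14 SE, adjusted p = 0.0289) and mPFC NeuN+ nuclei (log2 fold change 0.39 ± 0.14 SE, adjusted p = 0.0411), the last not called by DESeq2 (adjusted p = 0.146). These calls of *Ahsa1* were lost in 3 of 7 fits without 1 library in HIP NeuN- (naive replicate 2, the identical naive pair or CFC30 replicate 1), in 5 of 6 in mPFC NeuN- (all but CFC30 replicate 3) and in 5 of 6 in mPFC NeuN+ nuclei (all but naive replicate 3). *Ptges3* had 25.7, 25.9 and 27.2 CPM in naive HIP NeuN- libraries and 37.1, 37.2, 33.3 and 34.95 at CFC30, without overlap (log2 fold change 0.44 ± 0.10 SE, adjusted p = 0.0289), and rose in mPFC NeuN+ (log2 fold change 0.35 ± 0.10 SE, adjusted p = 0.0108) and mPFC NeuN- nuclei (log2 fold change 0.46 ± 0.10 SE, adjusted p = 0.0152). The calls of *Ptges3* were lost in 5 of 7 such fits in HIP NeuN- (all but CFC30 replicate 3 or 4), in 2 of 6 in mPFC NeuN+ (naive or CFC30 replicate 2) and in 3 of 6 in mPFC NeuN- nuclei (naive replicate 1 or 2 or CFC30 replicate 2). In HIP NeuN+ nuclei both missed (log2 fold change 0.43 ± 0.14 SE, adjusted p = 0.0660 for *Ahsa1* and log2 fold change 0.22 ± 0.07 SE, adjusted p = 0.0703 for *Ptges3*). *Cdc37*, which brings kinases to HSP90, had log2 fold changes from -0.19 to 0.09 over the 8 contrasts with naive nuclei. In mPFC NeuN- nuclei at CFC30 it stood at 19.96, 24.6 and 20.4 CPM against 22.1, 21.2 and 23.5 in naive mice (log2 fold change -0.01 ± 0.09 SE, adjusted p = 0.976).

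The number of members called moved with single libraries. Leaving out 1 library gave 0 to 2 members at CFC10 in HIP NeuN+ nuclei (none without naive replicate 1 or 3, 1 without naive replicate 4 or any CFC10 replicate). At CFC30 in HIP NeuN- nuclei it gave 1 to 5 (1 without naive replicate 2, without the identical naive pair, or without CFC30 replicate 1, and 5 without CFC30 replicate 4), and DESeq2 called 7 there. In mPFC NeuN- nuclei it gave 0 to 2 at CFC10 (none without naive replicate 1 or 2 or CFC10 replicate 3, and 1 without CFC10 replicate 1 or 2) and 4 to 7 at CFC30 (4 without naive replicate 1 or 2 or CFC30 replicate 2). In mPFC NeuN+ nuclei at CFC30 it gave 3 to 6 (3 without naive replicate 2 or CFC30 replicate 2), and in HIP NeuN+ nuclei at CFC30 it gave 2 to 5 (5 without CFC30 replicate 4). In every one of these fits the log2 fold changes of the called members kept their sign.

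Some markers of other cells moved with conditioning, and their part in these results was not tested beyond 1 covariate. Of 9 striatal neuron markers 1, *Pde10a*, a phosphodiesterase gene, carried nearly all of the summed CPM and its change. The sum was 183 to 193.6 in naive, 370.2 to 713.9 in CFC10 and 797.6 to 956.5 in CFC30 mPFC NeuN- libraries, of which *Pde10a* alone made 153.9 to 164.3, 343.3 to 685.3 and 765.3 to 930.7, while the other 8 summed to 28.05 to 36.9, 26.9 to 32.62 and 25.82 to 32.31. In mPFC NeuN+ libraries the other 8 summed to 54.54 to 60.99 in naive, 56.31 to 68.75 in CFC10 and 69.08 to 77.76 in CFC30 nuclei. In the HIP they summed to 41.75 to 50.18 in naive and 47.67 to 55.1 in CFC30 NeuN+ libraries, and to 33.99 to 37.33 and 32.72 to 39.51 in NeuN- libraries. In mPFC NeuN- nuclei 1 of the 4 striatal markers tested was called at CFC30 (*Pde10a*, log2 fold change 2.49, list median -0.062), and in HIP NeuN- nuclei also 1 of 4 (*Pde10a*, 0.89, list median 0.032). For mPFC NeuN+ nuclei the count was 3 of 6 (*Pde10a* 0.86, *Rgs9* 0.47 and *Ppp1r1b* 0.40, list median 0.251). With the mean log2 level of the 9 markers, *Pde10a* among them, as a covariate, mPFC NeuN+ nuclei kept 3 members at CFC10 (*Hsp90aa1*, *Hsp90ab1* and *Hsp90b1*) and 3 at CFC30 (*Hsp90b1*, *Stip1* and *Chordc1*), and lost both calls between the times. mPFC NeuN- nuclei had 0 at CFC10 and 4 at CFC30 (*Hsp90aa1*, *Hsp90ab1*, *Stip1* and *Chordc1*), a fit added after the marker sums were seen. In mPFC NeuN+ libraries 7 oligodendrocyte markers summed to 65.53 to 87.29 CPM in naive and 119 to 184.5 at CFC30. Only 2 of these markers were tested there, and 1 was called at CFC30, *Mbp* (log2 fold change 1.15 ± 0.13 SE, adjusted p = 7.33e-07, edgeR, list median 0.492). In mPFC NeuN- libraries 8 microglia markers summed to 1330 to 1408 CPM in naive and 1034 to 1233 after CFC. One CFC10 library of HIP NeuN- nuclei (replicate 2) held 44.99 CPM of 4 choroid plexus markers, against at most 4.917 in the other HIP NeuN- libraries, and without it still no member was called there at CFC10.

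The rest of the chaperone system was read from 6 lists of genes. HSP70 and cytosolic heat shock genes were higher at CFC30 in 4 of 10 tested members in HIP NeuN+, 4 of 14 in HIP NeuN-, 6 of 10 in mPFC NeuN+ and 7 of 15 in mPFC NeuN- nuclei, and lower in none. Of all genes tested 4.67%, 1.2%, 13.1% and 2.68% were called higher at CFC30 in that order and 3.89%, 1.18%, 11.6% and 3.18% lower, the shares against which this and the following counts stand. *Hspa8*, the constitutive HSP70, rose by 0.70 ± 0.11 (SE, log2 scale, adjusted p = 0.000813) at CFC10 in HIP NeuN+ and by 0.91 ± 0.08 (SE, log2 scale, adjusted p = 2.83e-08) in mPFC NeuN+ nuclei, and fell back between the times in the latter (log2 fold change -0.33 ± 0.07 SE, adjusted p = 0.0236). *Hsph1* (HSP110), a nucleotide exchange factor of HSP70, rose by 1.00 ± 0.08 (SE, log2 scale, adjusted p = 9.69e-09) at CFC30 in mPFC NeuN+ and by 1.12 ± 0.15 (SE, log2 scale, adjusted p = 0.000541) in mPFC NeuN- nuclei. Endoplasmic reticulum chaperones and genes of the unfolded protein response were higher at CFC30 in 7 of 15, 1 of 16, 11 of 15 and 8 of 16 tested members in the same order of fractions, and lower in none. Among them *Hspa5* (BiP) rose by 0.56 ± 0.08 (SE, log2 scale, adjusted p = 0.00107) in mPFC NeuN- and *Pdia6*, a disulfide isomerase, by 0.65 ± 0.09 (SE, log2 scale, adjusted p = 5.67e-06) in mPFC NeuN+ nuclei. The list medians at CFC30 ran from 0.212 to 0.505 for the HSP70 list and from 0.175 to 0.403 for the endoplasmic reticulum list, against medians of all tested genes within 0.01 of 0.

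Of the 20 other HSP90 co-chaperones 2, 4, 4 and 4 were higher at CFC30 in the same order and none lower, with medians from 0.058 to 0.158 (background 4.67%, 1.2%, 13.1% and 2.68% higher). The steroid receptor co-chaperone *Fkbp4* (FKBP52) rose by 0.69 ± 0.14 (SE, log2 scale, adjusted p = 0.00677) at CFC10 in HIP NeuN+ and by 0.50 ± 0.13 (SE, log2 scale, adjusted p = 0.00834) in mPFC NeuN+ nuclei. *Ahsa2*, a relative of *Ahsa1*, rose in NeuN- nuclei at CFC30 (log2 fold change 0.69 ± 0.10 SE, adjusted p = 0.00228 in the HIP and log2 fold change 0.72 ± 0.11 SE, adjusted p = 0.000936 in the mPFC), and its change differed from that in NeuN+ nuclei by 0.86 ± 0.14 (SE, log2 scale, adjusted p = 0.00312) in the HIP and 0.93 ± 0.15 (SE, log2 scale, adjusted p = 0.000387) in the mPFC. Of 10 mitochondrial chaperones 0, 0, 1 and 1 were higher at CFC30 and none lower, against the same shares of all genes, *Clpx* in mPFC NeuN+ (log2 fold change 0.29 ± 0.07 SE, adjusted p = 0.00209) and *Hspd1* (HSP60) in mPFC NeuN- nuclei (log2 fold change 0.56 ± 0.11 SE, adjusted p = 0.00958). Of the 3 or 4 heat shock factor genes tested, edgeR called 0 in the 8 contrasts with naive nuclei, and 2 of the 28 values had an unadjusted p under 0.05. Of the HSP90 client receptors and kinases 2 of 14, 1 of 15, 5 of 14 and 0 of 15 were higher at CFC30, and 0, 0, 1 and 1 lower, where all genes gave 4.67%, 1.2%, 13.1% and 2.68% higher and 3.89%, 1.18%, 11.6% and 3.18% lower. *Pdpk1*, the kinase that activates AKT, was among the higher ones in 3 fractions (log2 fold change 0.17 in HIP NeuN+, 0.24 in HIP NeuN- and 0.24 in mPFC NeuN+ nuclei).

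Corticosterone, the hormone whose receptor depends on HSP90, moved no member past the test in any hippocampal population. In NeuN+ nuclei 0 of 9 were higher or lower (1.26% and 0.798% of 12664 genes tested), in GFAP+ 0 (2.03% and 0.895% of 14527), in PU.1+ 0 (4.42% and 3.39% of 14279) and in 3X- nuclei 0 (5% and 2.47% of 14587). At an unadjusted p under 0.05, 1 member was higher in NeuN+ and 2 in PU.1+ nuclei and none was lower, and DESeq2 called 1, *Hsp90ab1* in PU.1+ nuclei (adjusted p = 0.0401). The members' median log2 fold change was 0.06, 0.02, 0.01 and 0.03. *Hsp90aa1* had 22.2, 21.9, 19.3 and 26.2 CPM after saline and 24, 25.03, 20.2 and 25.8 after corticosterone in NeuN+ nuclei (log2 fold change 0.10 ± 0.08 SE, adjusted p = 0.747), with overlapping groups. In PU.1+ nuclei *Hsp90ab1* had 84.3, 92.7, 122 and 117 and 122, 141, 137 and 113 CPM (log2 fold change 0.34 ± 0.10 SE, adjusted p = 0.0626), and *Hsp90aa1* 28.98, 32.5, 46.7 and 38.6 and 37.4, 56.02, 53.3 and 39.2 (log2 fold change 0.36 ± 0.15 SE, adjusted p = 0.186). These were the largest changes of any member, and their groups overlapped. Both were called when the replicate number was a block or when no gene was filtered, and left out 1 at a time, saline replicate 3 gave 2 and saline replicate 4 gave 1 member. In NeuN+ nuclei 1 member was called without saline replicate 4. No co-chaperone passed, for example *Stip1* in GFAP+ (log2 fold change -0.07 ± 0.09 SE, adjusted p = 0.842) and *Chordc1* in PU.1+ nuclei (log2 fold change 0.01 ± 0.08 SE, adjusted p = 0.963). The effect in the mean of the 3 glial populations minus that in NeuN+ nuclei was called for 0 members in either direction (0.647% and 0.162% of 18535 genes), with 0 at an unadjusted p under 0.05 and 0 by DESeq2.

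Genes of HSP90 partners and clients were called after the hormone. *Fkbp5* (FKBP51), the HSP90 co-chaperone that lowers hormone binding of the glucocorticoid receptor and a known target of that receptor, had 226, 386, 353 and 255 CPM in saline and 1770, 1980, 1246 and 1483 in corticosterone PU.1+ libraries. Its change was 2.44 ± 0.16 (SE, log2 scale, adjusted p = 1.75e-07) there, 2.06 ± 0.19 (SE, log2 scale, adjusted p = 8.96e-05) in GFAP+, 2.05 ± 0.13 (SE, log2 scale, adjusted p = 1.91e-14) in 3X- and 0.55 ± 0.06 (SE, log2 scale, adjusted p = 6.64e-10) in NeuN+ nuclei, and the glial mean exceeded the NeuN+ effect by 1.62 ± 0.20 (SE, log2 scale, adjusted p = 8.91e-07). Of the 20 other co-chaperones 1 was higher in NeuN+ and 3 in each glial population, none was lower (background 1.26% higher in NeuN+, 2.03% in GFAP+, 4.42% in PU.1+ and 5% in 3X- nuclei), and the glial calls beside *Fkbp5* were among *Cdc37l1*, *Ppp5c* and *Rpap3*. *Cdc37l1* rose in all 3 (log2 fold change 0.44 in GFAP+, 0.33 in PU.1+ and 0.29 in 3X- nuclei). *Ppp5c*, a phosphatase bound to HSP90, rose by 0.56 ± 0.05 (SE, log2 scale, adjusted p = 4.72e-06) in PU.1+ nuclei. *Nr3c1*, the glucocorticoid receptor itself and a classical HSP90 client, was lower in all 4 populations, with log2 fold changes of -0.36 ± 0.06 (SE, log2 scale, adjusted p = 0.000116) in NeuN+, -0.37 ± 0.08 (SE, log2 scale, adjusted p = 0.0241) in GFAP+, -0.36 ± 0.08 (SE, log2 scale, adjusted p = 0.0122) in PU.1+ and -0.43 ± 0.08 (SE, log2 scale, adjusted p = 0.000503) in 3X- nuclei. It was the 1 client called lower in each population, of 14 tested in NeuN+ and 15 in each glial population (background 0.798%, 0.895%, 3.39% and 2.47% lower). Clients called higher were 0 in NeuN+, GFAP+ and PU.1+ and 2 in 3X- nuclei, the kinase genes *Fyn* (log2 fold change 0.33 ± 0.07 SE, adjusted p = 0.00158) and *Map3k5* (log2 fold change 0.29 ± 0.08 SE, adjusted p = 0.0133). Of the HSP70 list edgeR called 0 in any population, with 9 of the 51 values at an unadjusted p under 0.05, and of the endoplasmic reticulum list 1 was higher in each glial population, *Herpud1*. Astrocyte markers summed to 276.4 to 340.2 CPM in saline and 453.9 to 622.2 in corticosterone PU.1+ libraries, and their part in these results was not tested.

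**Figure D4:**
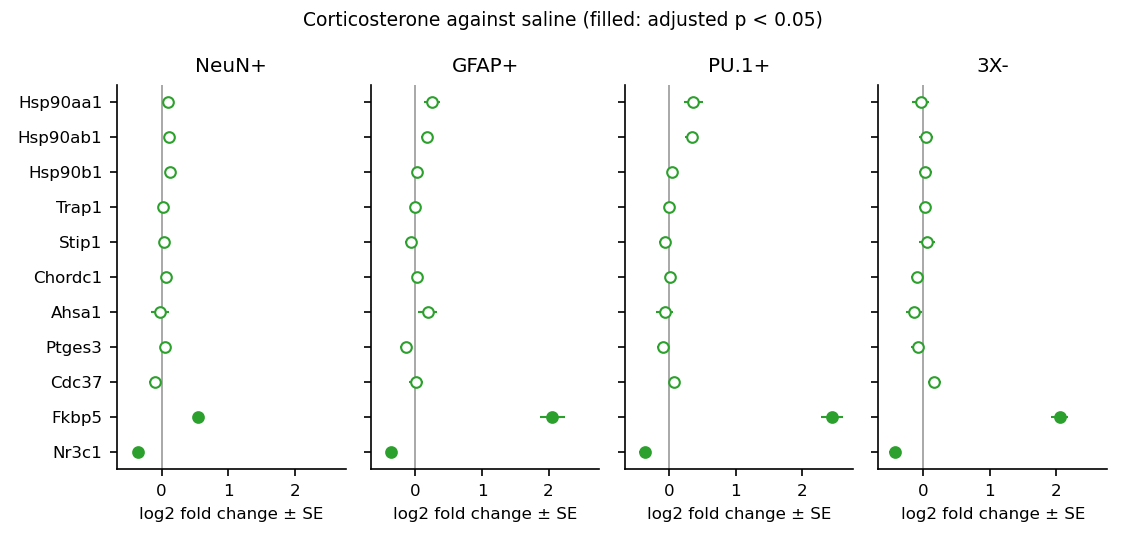
Log2 fold change (x axis, ± SE) after corticosterone against saline for the 9 HSP90 genes, the co-chaperone *Fkbp5* and the receptor *Nr3c1* in 4 hippocampal populations. Filled points passed an adjusted p of 0.05 in edgeR. Every HSP90 point is open, while *Fkbp5* and *Nr3c1* are filled in each population.

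γH2AX covered 1 of the 9 genes, *Hsp90ab1*, in both regions. The deposited lists hold 282 peaks in the HIP and 260 in the mPFC, made by the authors on merged replicates of naive and CFC30 tissue, with no value per replicate, so no difference between conditions can be tested from them. *Hsp90ab1* lies on the minus strand of chr17:45567775-45573271 (GRCm38, GENCODE vM21), 5497 bp of which 2999 bp are exonic. The HIP peak ran over chr17:45564229-45574723 (10495 bp) and the mPFC peak over chr17:45564217-45574549 (10333 bp), and the 2 shared 10321 bp. Both took in the whole gene, exons and introns. They reached 1452 bp (HIP) and 1278 bp (mPFC) upstream of its start and 3546 bp and 3558 bp past its 3′ end. A peak touched 1.53% of all annotated genes in the tables in the HIP and 1.46% in the mPFC, and 3.4% and 3.24% of the genes expressed above the filter there. The other 8 members had no peak on their gene body in either list, among them *Hsp90aa1*, *Stip1* and *Chordc1*. Of the other chaperone lists, *Hspa8*, *Hspa5* and *Calr* lay under peaks in both regions, *Dnaja1* and *Hsf1* in the HIP and *Xbp1* in the mPFC. *Hspa8* was covered over 93.7% and 94.6% of its length, *Hspa5* over its whole length, and *Hsf1* over 38.3%.

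**Figure D5:**
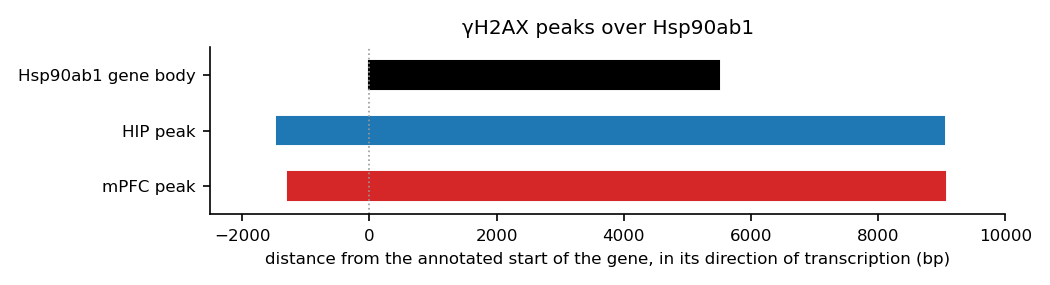
The *Hsp90ab1* gene body (black) and the γH2AX peaks of the HIP (blue) and mPFC (red), drawn to scale against the distance in bp from the annotated start of the gene, in its direction of transcription. Both peaks span the 5497 bp gene and extend 3546 bp (HIP) and 3558 bp (mPFC) past its end.

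Heat shock elements, the binding sites of heat shock factors, are runs of GAA units in alternating orientation, so promoters were searched for the 8-letter pairs GAANNTTC and TTCNNGAA, each of which reads the same on both strands. A promoter was the 250 bases before and 50 bases after a transcription start in RefSeq (GRCm38.p6), and 7 of the 9 members had an entry, *Hsp90aa1* and *Hsp90ab1* having none. Of 32851 such promoters 15.1% held a pair and 0.603% held 3 alternating units in a row (2 pairs that overlap by 1 unit). *Chordc1* held 5 pairs and 3 overlapping runs of 3 units, and *Cdc37* held 1 pair and no run of 3. *Hsp90b1*, *Trap1*, *Stip1*, *Ahsa1* and *Ptges3* had no match in these windows. The promoters of *Chordc1*, which was called at CFC30 in all 4 fractions but not securely in HIP NeuN+ nuclei, of *Cdc37*, which was called in none, and of *Stip1*, which had the largest rise and no match, are printed 5′ to 3′ with matched units in capitals.
*Chordc1* (chr9:18292017-18292316, plus strand): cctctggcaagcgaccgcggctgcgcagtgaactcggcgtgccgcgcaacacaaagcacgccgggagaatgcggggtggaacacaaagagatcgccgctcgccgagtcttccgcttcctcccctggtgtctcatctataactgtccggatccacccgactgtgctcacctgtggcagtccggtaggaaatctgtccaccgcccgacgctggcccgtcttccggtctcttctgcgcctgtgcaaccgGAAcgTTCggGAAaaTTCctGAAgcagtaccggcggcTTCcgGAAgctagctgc
*Cdc37* (chr9:21149885-21150184, minus strand): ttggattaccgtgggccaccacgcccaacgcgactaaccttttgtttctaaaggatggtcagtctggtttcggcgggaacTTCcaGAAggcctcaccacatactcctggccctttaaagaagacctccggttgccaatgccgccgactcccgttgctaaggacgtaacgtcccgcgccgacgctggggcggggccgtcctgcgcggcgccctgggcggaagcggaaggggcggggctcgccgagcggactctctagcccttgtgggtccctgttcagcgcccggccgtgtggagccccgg
*Stip1* (chr19:7039977-7040276, minus strand): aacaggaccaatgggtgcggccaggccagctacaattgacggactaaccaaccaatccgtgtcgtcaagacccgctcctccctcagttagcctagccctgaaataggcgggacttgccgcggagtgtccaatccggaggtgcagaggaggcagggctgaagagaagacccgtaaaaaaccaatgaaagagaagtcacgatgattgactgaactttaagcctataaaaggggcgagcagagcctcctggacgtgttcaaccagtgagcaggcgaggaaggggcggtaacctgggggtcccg
In *Chordc1* 4 of the pairs run into each other, from position -4 to position 19 counted from the transcription start (1 is its first base), and make 5 alternating units. The other pair begins at position 34. In *Cdc37* the pair begins at position -170. Among the other lists a pair was found in the promoter of 8 of 14 HSP70 and cytosolic heat shock genes with an entry and of 0 of 13 endoplasmic reticulum genes, against 17% of all genes with a promoter of this length. It was found in 5 of 18 other HSP90 co-chaperones, 3 of 8 mitochondrial chaperones, 3 of 12 clients and 0 of 2 heat shock factors. A run of 3 units was found in 2 genes of the HSP70 list and 2 mitochondrial chaperones, against 0.662% of all genes. A match is a run of letters and was not tested for binding.

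Across the 20 RNA groups, each table centred on its own mean of log2(CPM + 1), the genes whose levels ran most like those of *Hsp90aa1* among 9743 genes were *Tob2* (Pearson r = 0.952), *Ubxn6* (0.949), *Hsp90ab1* (0.946), *Selenok* (0.943) and *Fkbp4* (0.942). Most like *Hsp90ab1* were *Ubb* (0.972), *Sucla2* (0.953), *Vamp2* (0.951), *Hspd1* (0.949) and *Tmem115* (0.948), with *Hsp90aa1* sixth (0.946). Of the other members *Ahsa1* ran closest to *Hsp90aa1* (0.887) and *Ptges3* to *Hsp90ab1* (0.876), but only at rank 148 and rank 486 of the 9743 genes. *Stip1* (0.586 and 0.543) and *Chordc1* (0.509 and 0.541) ran least like them, *Chordc1* at ranks 4851 and 4942. The 20 group means hold both sorted fractions and conditions, so these values mix the level by cell type with the response, and they carry no test.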

How the data were processed

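RNA of sorted nuclei (74 libraries, 20 groups) and γH2AX chromatin immunoprecipitation (14 samples) made up the 88 samples. The authors deposited raw counts per gene, counted over the gene body so that exons and introns both contribute, in 1 table for each of the HIP, mPFC and corticosterone experiments, with mm10 (GRCm38) as the build. Per the labels, HISAT2 and featureCounts were among the tools for the reads, and Bowtie2 and MACS2 for the peak lists, which the authors deposited after merging replicates. Their versions and the strand setting of the counting are not given in the sources used here. The kit was version 1 of the SMARTer Stranded Total RNA Pico kit for the mPFC and version 2 for the HIP, so regions were fitted apart and not compared.

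The count tables were read by gene ID and matched to symbols of GENCODE vM21. The 67 IDs without a match held 0.0232 to 0.0266% of the counts. Genes with a mean above 0.2 FPKM over the gene body in at least 1 group of a fit were kept. Each fraction or population was fitted on its own with edgeR 4.0.16 (TMM scaling, quasi-likelihood F test, Benjamini-Hochberg adjustment over all genes kept), in R 4.3.3, and fractions were compared in 1 fit per table. Calls were made where the adjusted p was below 0.05, and the SE of a log2 fold change was its size divided by the square root of F. CPM in the text use library totals, and fold changes use TMM. DESeq2 1.42.0, RLE scaling, library totals, no filter, a replicate block, all groups in 1 fit, a striatal marker covariate and leaving out each library were alternatives. The covariate in mPFC NeuN- nuclei, library totals as the scale and a block of condition and number across fractions were added after the data were seen. The last allows that same-numbered fractions of a condition came from 1 animal, which column names such as those of the corticosterone table leave possible but the sources used here do not state. The identical HIP NeuN- naive library was matched to number 3. The fitting code was tested on simulated data. Copies of the genes were searched in the annotated pseudogenes with blastn 2.17.0 (at least 90% identity over 300 bp): 4 copies of *Hsp90aa1* held 148 counts in the HIP table against 13476 for the gene, 2 of *Hsp90ab1* 4 against 28474, and 2 of *Ptges3* 31 against 7694, so reads shared with a copy leave these genes' values slightly uncertain.

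The members and the gene lists were chosen with earlier results of these data known. Named genes were all 9 members in every comparison, at most 4 called genes with the smallest adjusted p from each other list and comparison, and the 5 genes most like *Hsp90aa1* and *Hsp90ab1*. *Ppp1r1b*, *Rgs9* and *Pde10a* are the striatal markers called in mPFC NeuN+ nuclei, and *Mbp* is the oligodendrocyte marker called there.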

Additional observations from a re-analysis of the deposited data

Results flagged for a closer look

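Each member was tested in each group of 4 libraries, which made 117 sets of values. In 7 of them 1 library lay apart from the rest by Dixon's criterion, where chance alone gives about 1 in 20 sets. Sets of the same group share their libraries, so they are not independent. *Hsp90ab1* was high in replicate 2 of HIP NeuN- CFC30 nuclei, at 173.2 CPM against a group median of 121.25, and in replicate 4 of saline NeuN+ nuclei, at 71.16 against 50.63. *Hsp90b1* was low in replicate 1 of saline GFAP+ nuclei, at 104.9 CPM against 118.9. *Chordc1* was low in replicate 4 of HIP NeuN+ CFC30 nuclei, at 47.8 CPM against 53.5, which is the library whose removal gave 5 called members in that contrast. *Ahsa1* and *Cdc37* were low in replicate 4 of corticosterone PU.1+ nuclei, at 7.862 CPM against 11.04 and at 31.1 against 36.2. *Cdc37* was high in replicate 1 of corticosterone NeuN+ nuclei, at 20.33 CPM against 15.8.

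The CFC30 change of *Hsp90ab1* in the mPFC was larger in NeuN- than in NeuN+ nuclei by 0.54 on the log2 scale (adjusted p = 0.0223, edgeR interaction test). That call was lost in 5 of 12 fits without 1 library, and the same test in the HIP called no member.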

How the results depend on the processing

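Counts are of members called higher unless stated. A contrast not listed under a setting kept the main count or one close to it. Leaving out 1 library gave 0 to 2 (HIP NeuN+ CFC10), 2 to 5 (HIP NeuN+ CFC30), 0 to 1 (HIP NeuN+ CFC30 against CFC10), 1 to 5 (HIP NeuN- CFC30), 3 to 6 (mPFC NeuN+ CFC30), 0 to 2 higher and 0 to 2 lower (mPFC NeuN+ CFC30 against CFC10), 0 to 2 (mPFC NeuN- CFC10), 4 to 7 (mPFC NeuN- CFC30), 0 to 1 (mPFC NeuN- CFC30 against CFC10), 0 to 1 (corticosterone NeuN+), 0 to 2 (corticosterone PU.1+), 1 to 2 (HIP naive fractions), 1 to 3 (mPFC naive fractions) and 0 to 2 (mPFC fraction difference of the CFC30 effect). Of the values of single members under these fits 1711 kept their call or lack of one, 72 lost the call and 26 gained it. Sizes were not compared, and the 1711 include changes of sign within 1 SE where neither value passed. In 9 the sign changed by more than that with neither value called, and in 0 did a value with a call change sign.

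DESeq2 gave 2 (HIP NeuN+ CFC30), 1 (HIP NeuN- CFC10), 7 (HIP NeuN- CFC30), 4 (mPFC NeuN+ CFC30) and 0 (mPFC NeuN+ CFC30 against CFC10). It also gave 1 (PU.1+) and 1 higher and 5 lower (saline NeuN+). RLE scaling gave 2 (HIP naive) and 1 (saline NeuN+). All groups in 1 fit gave 1 (HIP NeuN+ CFC10), 0 (HIP NeuN+ CFC30 against CFC10), 2 and 6 (HIP NeuN- CFC10 and CFC30), 1 (HIP NeuN- CFC30 against CFC10), 0 (mPFC NeuN+ CFC30 against CFC10) and 1 (mPFC NeuN- CFC30 against CFC10). Keeping both identical libraries gave 4 and 7 (HIP NeuN- CFC10 and CFC30). No filter gave 4 and 5 (HIP NeuN+ CFC10 and CFC30), 4 and 7 (HIP NeuN- CFC10 and CFC30), 2 lower (mPFC NeuN+ CFC30 against CFC10), 1 (mPFC NeuN- CFC30 against CFC10), 2 (PU.1+), 2 (HIP naive), 2 (mPFC fraction difference) and 1 (saline NeuN+). The striatal covariate gave 3 (mPFC NeuN+ CFC30), 0 (mPFC NeuN+ CFC30 against CFC10), 0 and 4 (mPFC NeuN- CFC10 and CFC30, added after seeing the data). The causes were not tested.

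Library totals as the scale, added after seeing the data, gave 0 (HIP NeuN+ CFC30 against CFC10), 1 (mPFC NeuN+ CFC30 against CFC10), 5 higher and 1 lower (HIP naive), 7 higher and 0 lower (mPFC naive) and 0 higher and 7 lower (saline NeuN+). It reversed *Trap1* (0.11) and *Cdc37* (0.45) in HIP naive, *Trap1* (0.16), *Stip1* (0.10), *Chordc1* (0.22) and *Ahsa1* (0.48) in mPFC naive, and *Trap1* (-0.04), *Stip1* (-0.13) and *Chordc1* (-0.18) in saline NeuN+ nuclei.

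With the replicate block the counts became 5 (HIP NeuN+ CFC30), 1 and 5 (HIP NeuN- CFC10 and CFC30) and 2 (PU.1+). Between conditions of a fraction same-numbered libraries correlated above 0.1 in 16 of 56 pairs, and 19 of 73 libraries correlated best with their own number. The median correlation of same-numbered libraries ran from 0.021 to 0.107 over the fits, against -0.066 to -0.001 for other numbers. Whether same-numbered libraries of different conditions share more than a number was not tested. Across fractions of a condition the median correlation of same-numbered libraries was 0.036 (HIP), 0.095 (mPFC) and 0.061 (corticosterone experiment), against -0.023, -0.041 and -0.013 for other numbers. Of the same-numbered pairs 15 of 68 exceeded 0.1, against 1 of 33 (HIP), 0 of 18 (mPFC) and 0 of 144 (corticosterone experiment) for other numbers. Blocking on condition and number there, added after seeing the data, gave 3 (HIP naive) and 2 (mPFC fraction difference) and ended no call. Groups of 3 or 4 libraries, and as few as 47 counts for *Ahsa1*, limit what can be detected.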
